A study of Bos taurus with 129 samples.

Results

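The first 13 days after arrival were compared between steers with bovine respiratory disease (BRD) and steers that stayed healthy, to ask whether whole-blood gene expression moved differently in the 2 groups over that time. All steers with a library on both day 0 and day 13 were included, which gave 25 of the 26 sequenced animals and 50 libraries of those made on 5 sampling days. Of these, 14 carried the disease label Yes and are called BRD, and 11 carried the label No and are called healthy. The measure was each animal's own change, that is, its log2 level on day 13 minus its log2 level on day 0, and the comparison was the mean change of the BRD steers minus the mean change of the healthy steers.

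The cattle were commercial crossbred beef steers of unknown history, bought through an order-buyer, hauled over a long distance and allotted to pens with weights balanced. Their age is not given in the sources used here. Each pen received copper, cobalt, manganese and zinc from a single source. INR pens received sulfates, AAC pens received amino acid-complexed minerals, and COMBO pens received the complexed minerals with a mineral drench before shipment, on day 0 and alongside any treatment for illness. The BRD group held 4 AAC, 3 COMBO and 7 INR steers and the healthy group 3 AAC, 4 COMBO and 4 INR steers, which were pooled here. All steers, BRD and healthy alike, were vaccinated against bovine respiratory syncytial virus, parainfluenza-3 virus, bovine viral diarrhea virus and bovine herpesvirus-1 and given injectable doramectin, a dewormer, on day 0, so the change from day 0 to day 13 also spans the response to vaccination in both groups. No steer of the healthy group had a BRD diagnosis, or drugs given for BRD, by day 60. The dates of diagnosis and treatment of the others are not given in the sources used here, so a day 13 sample from a BRD steer can precede, accompany or follow its illness, and the effect of any drug it received was not tested.

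BRD is a pneumonia complex of newly received cattle in which viral infection and the stress of marketing open the lung to bacteria. Several blood programs are known to move after arrival. Stress hormones (glucocorticoids) act through their receptor to induce genes such as FKBP5 and TSC22D3, feed withdrawal raises circulating fatty acids that activate PPAR receptors and induce genes of fatty acid oxidation such as CPT1A and PDK4, and viral infection induces type I interferon and with it the interferon-stimulated genes.

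Total counts per library ran from 31613545 to 54306034 (median 41793508.5), and 16927 of the 32395 genes of the table had enough counts to be tested. In bulk blood, fewer cells of a type and less RNA per cell cannot be told apart. Markers of neutrophils, monocytes, B cells, T cells and platelets were detected in all 50 libraries, and summed connective tissue markers (COL1A1, COL1A2, COL3A1, DCN and LUM) were above 100 CPM (counts scaled to library size) in 3 day 13 libraries, those of BRD steer ID21 (2855 CPM) and healthy steers ID6 (291.5 CPM) and ID50 (5597 CPM), against at most 98.5 CPM in the others. Pens were not balanced: pen 5 held only healthy steers and pens 6 and 7 only BRD steers, so for these pens the pen and the disease group cannot be told apart.

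No gene passed the test for a different change between BRD and healthy steers over the first 13 days. The edgeR quasi-likelihood test with the animal as a block found 0 of 16927 genes (0%) at a false discovery rate (FDR) below 0.10, none higher and none lower in BRD. At an unadjusted p below 0.05 there were 365 genes, or 2.16% of those tested, and the smallest FDR was 0.9999. With no true difference in any gene a share near 0.05 is expected at that limit, and 2.16% is below it. The unadjusted p values given below are therefore descriptive. The limma test on the animals' changes also called 0 genes, with 442 at an unadjusted p below 0.05. DESeq2 called 3 uncharacterised loci, with 485 genes at an unadjusted p below 0.05.

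Both groups did change. In BRD steers 2243 genes were differentially expressed between day 0 and day 13 (DEGs), 1082 higher (6.39%) and 1161 lower (6.86%) on day 13. In healthy steers there were 988 DEGs, 437 higher (2.58%) and 551 lower (3.26%). The groups differ in number of animals, so these counts do not measure which group changed more. The same holds for the counts of list members called below, which are to be set against these shares over all genes. Of the DEGs, 683 were shared and all 683 had the same direction, which is 30.5% of the BRD DEGs and 69.1% of the healthy DEGs. The 988 healthy DEGs had a median absolute log2 change of 0.453 in the healthy steers that defined them and a median of 0.324 in the same direction in BRD steers, where 976 of them (98.8%) had the same sign. Of these 988 genes, 73 had an unadjusted p below 0.05 for the difference, and among the 1560 genes called in BRD but not in healthy steers the number was 99, a larger share than the 2.16% over all genes in both cases. The genes were chosen by the same libraries, so nothing is read from these shares. For the 1560 genes the change in healthy steers had the same sign for 1512.

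**Figure D1:**
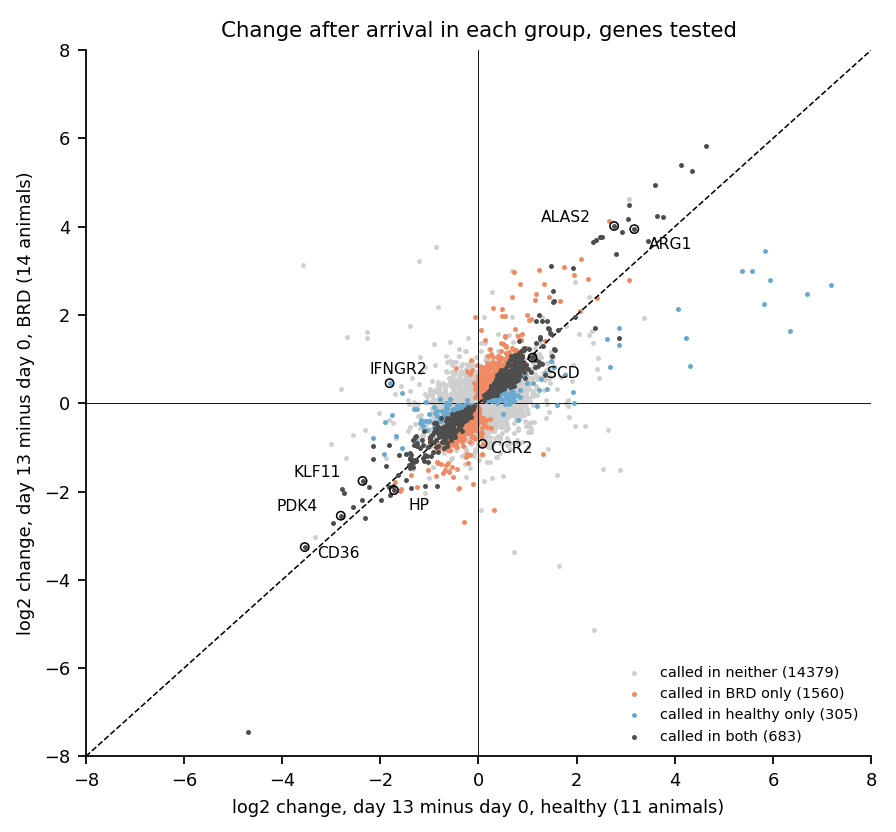
Log2 change from day 0 to day 13 of each tested gene in healthy steers (x axis, 11 animals) and BRD steers (y axis, 14 animals), colored by the group in which the gene passed FDR 0.10, with 2 genes outside the axes of ±8. The 683 genes called in both groups all lie in the lower left and upper right quadrants.

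The precision of the comparison can be read from the intervals. The median absolute difference in change was 0.0871 on the log2 scale and its median standard error (SE) 0.159. For 13983 genes (82.6%) the 95% interval of the difference lay within ±1, and for 9662 genes it lay within ±0.5. For the remaining genes a difference of 0.5 or more lay inside the interval. The interval left out 0 for 368 genes before any adjustment.

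CPT1A, which carries fatty acids into mitochondria for oxidation, stood in BRD steers at 71.2, 198.5 and 279.4 CPM (lowest, median and highest) on day 0 and at 38.5, 69.39 and 103.8 CPM on day 13. In healthy steers it stood at 135.6, 217.6 and 390.6 CPM on day 0 and 37.8, 63.8 and 92.32 CPM on day 13. CPT1A was lower on day 13 in every one of the 25 animals, and the ranges of the groups overlapped on both days. The log2 change was -1.43 ± 0.115 (SE, n = 14, FDR 1.502e-08) in BRD and -1.88 ± 0.132 (SE, n = 11, FDR 9.442e-10) in healthy steers, a difference of 0.46 ± 0.171 (unadjusted p = 0.013, FDR 0.9999, edgeR).

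KLF11, a transcription factor that, like the other genes of this paragraph, was chosen after its values were seen, had the smallest p for the change in each group. In BRD steers it fell from a median of 40.03 CPM (16.7 to 50.4) to 11.04 CPM (6.495 to 15.4), and in healthy steers from 45.38 CPM (26.1 to 49.1) to 7.42 CPM (3.76 to 18.8). The ranges of the 2 days did not overlap in either group. The log2 change was -1.76 in BRD and -2.36 in healthy steers, with a difference of 0.60 (95% interval 0.25 to 0.95, unadjusted p = 0.001702, FDR 0.9999, edgeR). PDK4, which shuts pyruvate out of oxidation during fasting, changed by -2.55 and -2.81, and SLC25A20, the carnitine carrier that works with CPT1A, by -0.96 and -1.12. The 95% interval of the difference ran from -0.36 to 0.88 for PDK4 and from -0.06 to 0.39 for SLC25A20, and both genes fell in all 25 steers.

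Among the 27 tested genes of PPAR-driven fatty acid oxidation, 9 fell and 1 rose in BRD and 8 fell and 1 rose in healthy steers, of which 8 were shared. The median log2 change over the list was -0.102 in BRD and -0.158 in healthy steers, against -0.00375 and 0.0021 over all genes tested. Averaged over the list, all 25 animals had a lower level on day 13, with changes of -0.85, -0.358 and -0.108 in BRD (lowest, median and highest) and -0.626, -0.475 and -0.235 in healthy steers. The 1 member that rose in both groups was PPARA, the receptor itself (0.19 in BRD and 0.37 in healthy steers). Without the 3 animals high in connective tissue markers, 6 members were called in BRD and 6 in healthy steers.

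Of 23 glucocorticoid-induced genes tested, 14 fell in healthy and 5 in BRD steers and none rose, and the 5 (CD163, CXCR4, IL1R2, TSC22D3 and ZBTB16) were among the 14. The median log2 change was -0.642 in healthy and -0.296 in BRD steers. The difference was positive, that is, a smaller fall in BRD, for 19 of the 23 genes, with a median of 0.272 against -0.00517 over all genes. Of the 23, 4 had an unadjusted p below 0.05 and 0 passed the FDR, so a difference was not shown for any member. Averaged over the list, the change ran from -0.836 to 0.21 (median -0.325) in BRD and from -1.11 to -0.125 (median -0.486) in healthy steers, below 0 in 12 of 14 and in 11 of 11 animals. The 2 BRD steers above 0 were both COMBO steers of pen 6, a pen with no healthy steer. Without the 3 animals high in connective tissue markers the members called were 7 in healthy and 5 in BRD steers. Among the 14 animals of pens that held both groups they were 2 and 2. Calls over all genes were also fewer in those pens, at 197 in healthy and 983 in BRD steers. There the list's median change was -0.488 in healthy and -0.153 in BRD steers, with a median difference of 0.204.

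FKBP5, a chaperone of the glucocorticoid receptor and among its most responsive targets, had the smallest p of this list for the difference. It stood at 101.4, 201.0 and 513.3 CPM on day 0 in BRD and 117.9, 293.0 and 1176 CPM in healthy steers (lowest, median and highest). On day 13 the median was 140.1 CPM and the highest value 316.1 CPM in BRD, where no steer was below 100 CPM, and healthy steers stood at 101.6, 142.8 and 176.5 CPM. The groups overlapped on both days, and the 3 highest day 0 values belonged to healthy steers ID6, ID42 and ID49. FKBP5 fell by 1.17 on the log2 scale in healthy steers (SE 0.257, FDR 0.009952), and its change of -0.39 in BRD steers did not pass the test (SE 0.221, FDR 0.2881). The difference was 0.78 ± 0.337 (unadjusted p = 0.02835, FDR 0.9999, edgeR), and on day 0 itself FKBP5 was -0.88 in BRD relative to healthy steers (unadjusted p = 0.001962, not past the FDR). Other members called in healthy steers only were CEBPD (-1.91, against -0.43 in BRD), KLF9 (-1.01 against -0.24), DUSP1 (-0.82 against -0.44) and PER1, which is also a clock gene (-0.74 against -0.17).

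**Figure D2:**
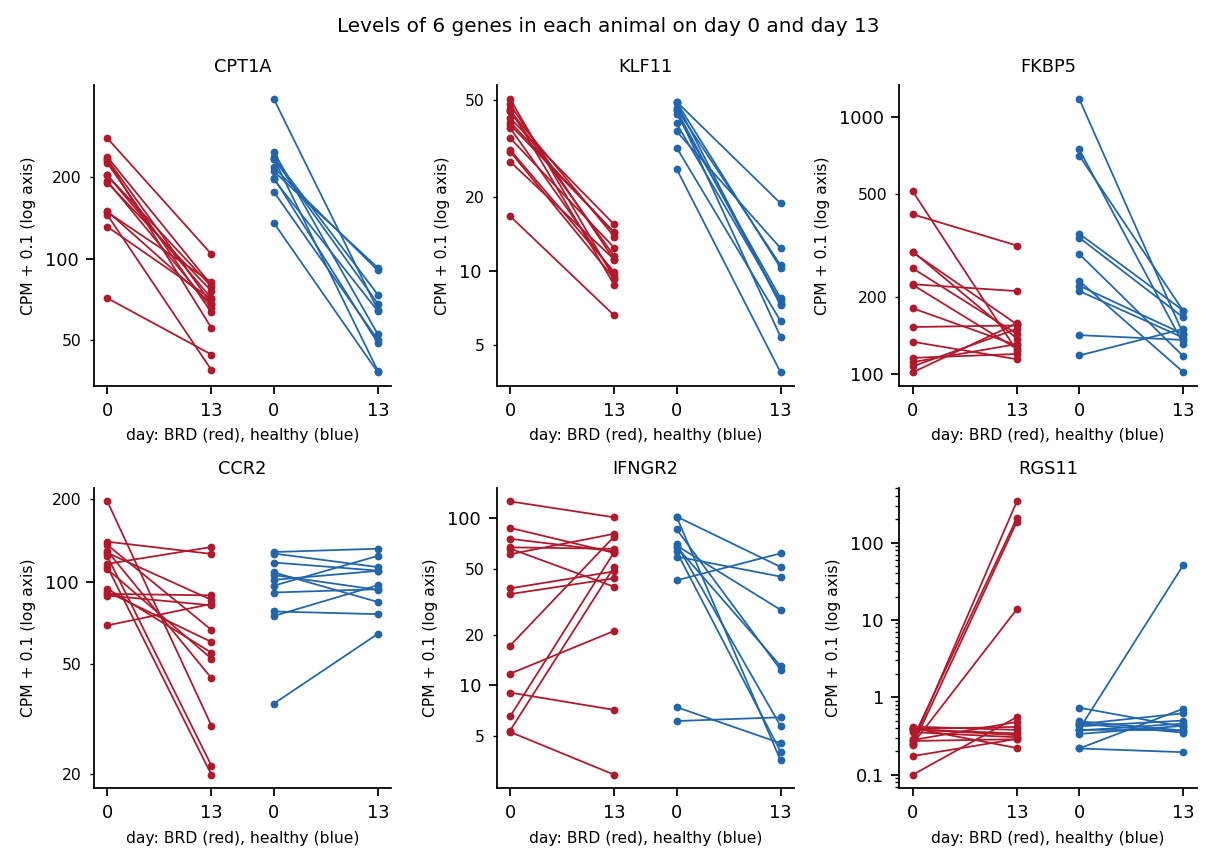
Level of 6 genes in each steer on day 0 and day 13, as CPM plus 0.1 on a log axis, with 1 line per animal, BRD in red and healthy in blue. CPT1A and KLF11 fall in all 25 animals, CCR2 falls in 12 of 14 BRD steers, and RGS11 stands far above the rest on day 13 in 4 BRD steers and 1 healthy steer.

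Cholesterol synthesis genes rose together in both groups. Of 22 tested, 15 rose and 1 fell in BRD and 11 rose and 1 fell in healthy steers, with 12 shared, and the gene that fell in both was ABCA1, the cholesterol exporter (-0.68 in BRD and -0.55 in healthy steers). The median log2 change was 0.314 in BRD and 0.361 in healthy steers. MSMO1 (0.67 and 0.53), FDFT1 (0.67 and 0.56) and SQLE (0.61 and 0.49), enzymes of the sterol branch, and INSIG1 (0.66 and 0.59), which senses sterols, were among the DEGs of both groups. SCD, which desaturates fatty acids and was chosen after its values were seen, rose in all 25 animals (1.03 in BRD and 1.10 in healthy steers, interval of the difference -0.44 to 0.31). None of the 22 genes had an unadjusted p below 0.05 for the difference.

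Several monocyte genes fell in both groups. Of 18 monocyte markers, 8 fell and 2 rose in BRD and 6 fell and 2 rose in healthy steers, 8 of them shared. CD163, the scavenger receptor for haptoglobin-bound hemoglobin, stood in BRD at 66.03, 146.8 and 669.3 CPM on day 0 and 26.8, 48.7 and 73.95 CPM on day 13 (lowest, median and highest). In healthy steers it stood at 54.4, 165.1 and 576.3 CPM and then at 40.4, 76.4 and 105.97 CPM. It was lower on day 13 in 14 of 14 BRD and 10 of 11 healthy steers, and the groups overlapped on both days. The log2 change was -1.92 and -1.37, with a difference of -0.55 (95% interval -1.44 to 0.35). CD14 (-1.33 and -1.04), VCAN (-1.20 and -1.04) and MARCO (-2.71 and -2.96), receptors and matrix proteins of classical monocytes, fell in both groups, and CX3CR1 (0.66 and 0.45) and MS4A7 (1.06 and 0.88) rose in both. HP, which encodes haptoglobin, fell in all 25 steers (-1.97 and -1.72, interval of the difference -0.78 to 0.28).

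CCR2, the chemokine receptor that draws monocytes to inflamed tissue, had the smallest p of the monocyte markers for the difference. BRD steers stood at 69.2, 114.5 and 195.9 CPM on day 0 and 19.7, 63.5 and 133.6 CPM on day 13 (lowest, median and highest). Healthy steers stood at 35.9, 101.4 and 128.1 CPM and then at 64.4, 96.96 and 131.7 CPM. The change ran from -2.71 to 0.26 in BRD and was negative in 12 of 14 steers, and it ran from -0.36 to 0.84 in healthy steers and was negative in 5 of 11, so the groups overlapped. CCR2 fell in BRD (-0.92 ± 0.213, FDR 0.00749) and its change in healthy steers was 0.08 ± 0.228 (FDR 0.8718). The difference was -1.001 (95% interval -1.64 to -0.36, unadjusted p = 0.003534, FDR 0.9999, edgeR), which did not pass the test. The 3 largest falls, all below -2.5, were in AAC steers ID21, ID31 and ID41.

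Of 18 neutrophil alarmins and chemotaxis genes, 6 fell and 1 rose in BRD and 1 fell in healthy steers. Among all genes 6.86% fell and 6.39% rose in BRD, and 3.26% fell in healthy steers. The median log2 change of the list was -0.366 in BRD and -0.268 in healthy steers. TNFAIP6, a hyaluronan-binding protein induced by TNF, had the smallest p for the difference. It stood at 0.636, 2.42 and 6.61 CPM on day 0 and 0.503, 1.36 and 3.11 CPM on day 13 in BRD (lowest, median and highest), and at 0.399, 1.49 and 4.47 CPM and then 1.14, 1.75 and 3.52 CPM in healthy steers. It was lower on day 13 in 11 of 14 BRD and 4 of 11 healthy steers, and the groups overlapped on both days. TNFAIP6 passed in neither group (-0.74, FDR 0.1012, and 0.41, FDR 0.49), and its difference was -1.15 (95% interval -2.02 to -0.28, unadjusted p = 0.01121, FDR 0.9999, edgeR). The calprotectin genes S100A8 (-1.06 and -0.58) and S100A9 (-0.98 and -0.44), with S100A12 (-0.95 and -0.58), passed the test in BRD, where S100A8 was lower on day 13 in 13 of 14 steers. In healthy steers S100A8 was lower in 8 of 11, with an FDR of 0.1613, and its difference was -0.48 (95% interval -1.10 to 0.15). TREM1, an amplifier of inflammatory signals on myeloid cells, changed by -1.36 and -0.62 and passed in BRD. Summed over 7 neutrophil markers, the median log2 change was -0.546 in BRD and -0.199 in healthy steers. The part of cell composition in these values was not tested.

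Among 19 neutrophil granule genes, 2 rose and 4 fell in BRD and 1 rose and 1 fell in healthy steers. The shares over all genes were 6.39% and 6.86% in BRD and 2.58% and 3.26% in healthy steers. ARG1, arginase, rose in all 25 animals (3.94 and 3.17), from a median of 0.697 to 10.1 CPM in BRD and 0.434 to 7.79 CPM in healthy steers. BPI, which binds endotoxin, fell in both (-1.88 and -1.75). MPO, myeloperoxidase, had the smallest p for the difference: it rose by 0.80 on the log2 scale in BRD (higher in 12 of 14 steers, FDR 0.0928) and changed by -0.45 in healthy steers (higher in 6 of 11, FDR 0.4734), a difference of 1.25 ± 0.448 (unadjusted p = 0.009803, FDR 0.9999, edgeR) at levels of at most 13.5 CPM. Of 19 genes of Toll-like receptors and their adaptors, 6 fell in BRD and 1 in healthy steers, and of 19 interleukin-1 and inflammasome genes 5 fell in BRD and 1 in healthy steers, where 6.86% and 3.26% of all genes fell. IL1R2, the decoy receptor for interleukin-1, was called in both (-1.3 and -1.28), as was CD14, the endotoxin co-receptor.

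**Figure D3:**
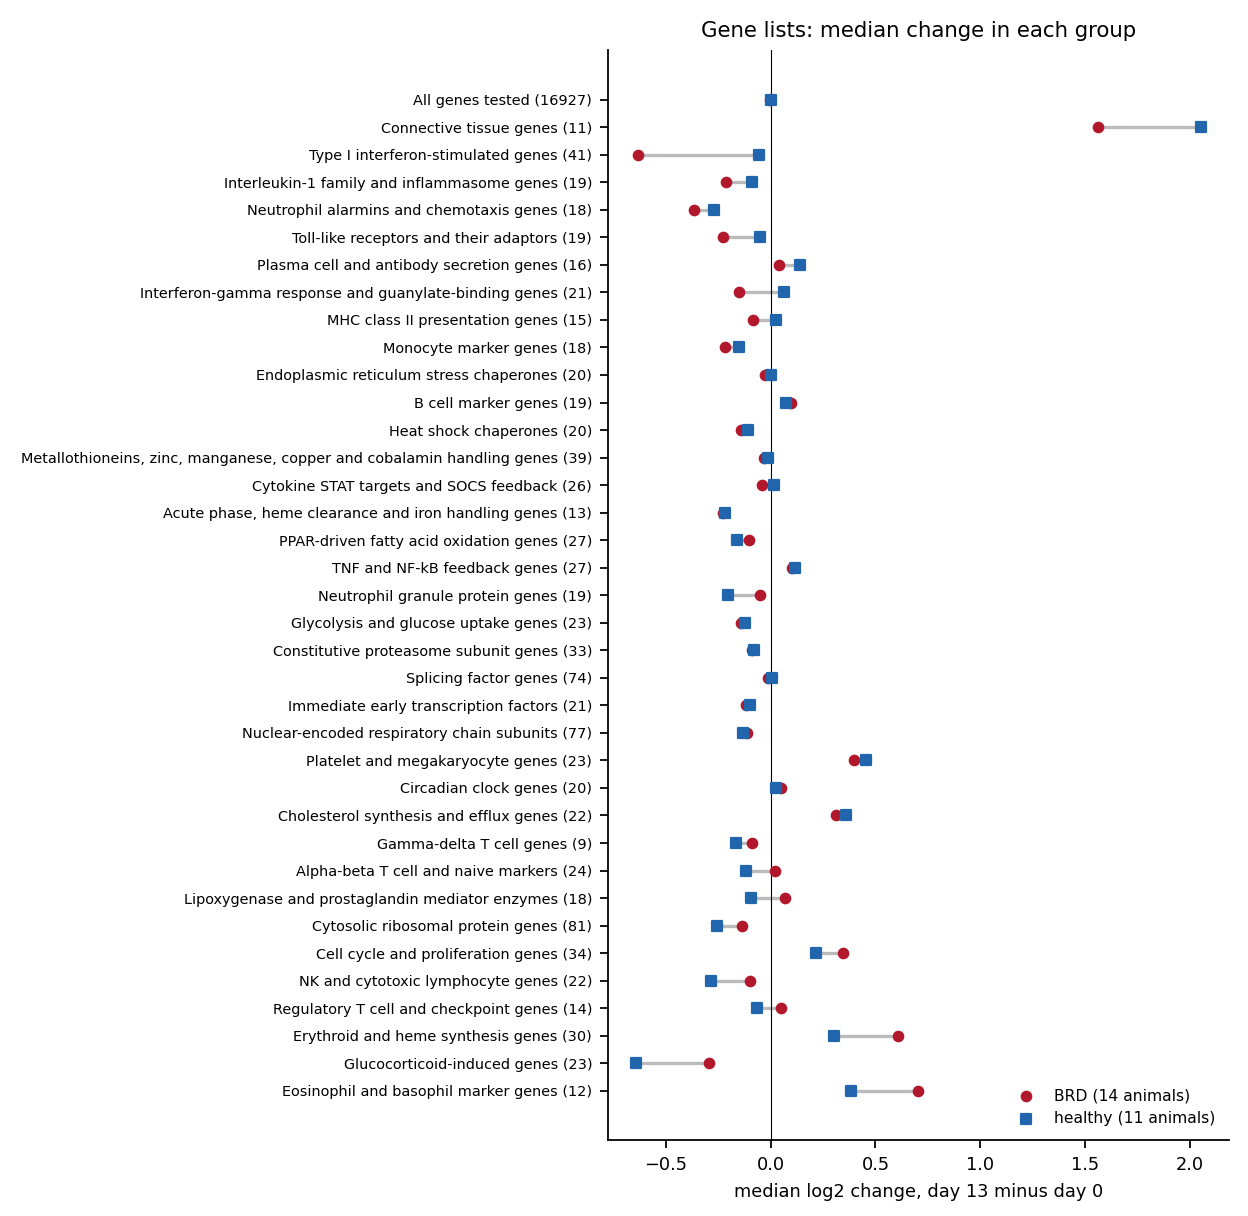
Median log2 change from day 0 to day 13 of the tested members of each gene list, BRD as circles and healthy as squares. The erythroid, platelet, basophil and cholesterol lists lie above 0 and the glucocorticoid and myeloid lists below 0 in both groups.

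The type I interferon-stimulated genes differed widely between animals, and none passed the test between groups. Of 41 tested, 38 had a negative difference (median -0.518, against -0.00517 over all genes), but 0 had an unadjusted p below 0.05 and 0 passed the FDR. The median log2 change was -0.633 in BRD and -0.0535 in healthy steers, and 1 gene was called in BRD, LGALS9, which encodes galectin-9 (-0.64, FDR 0.05847). ISG15, a ubiquitin-like antiviral protein chosen here after its values were seen, ranged in BRD from 25.8 to 2253 CPM on day 0 (median 168.0) and from 17.3 to 1362 CPM on day 13 (median 90.8). In healthy steers it ranged from 17.96 to 608.8 CPM (median 80.7) and from 28.5 to 258.3 CPM (median 84.1). The log2 change of ISG15 ran from -5.46 to 4.59 in BRD and from -4.06 to 2.26 in healthy steers, the difference was -1.303, and its 95% interval of -3.35 to 0.74 spans 0.

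Averaged over the list, the interferon-stimulated genes changed by -2.84, -0.498 and 2.49 in BRD (lowest, median and highest; lower on day 13 in 8 of 14) and by -1.82, 0.214 and 0.889 in healthy steers (lower in 5 of 11). The 3 most extreme animals were COMBO steers of pen 6 with BRD, ID54 (-2.84), ID18 (-2.46) and ID16 (2.49). In the pens that held both groups the range was -1.77 to 0.402 in BRD and -1.15 to 0.889 in healthy steers. The list's median difference was -0.779 in those pens, against -0.518 over all animals. It was -0.73 without the 3 animals high in connective tissue markers, and smaller, at -0.284, in a fit of all libraries of all days. No member was called for the difference in any of these settings. On day 0 the median difference of the 41 genes was 0.802, BRD above healthy, and on day 13 it was 0.415, and none of the 41 passed the FDR on either day.

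Interferon-gamma response genes included 3 that fell in BRD, of 21 tested: PSMB10, an immunoproteasome subunit (-0.68), FCGR1A, a high-affinity antibody receptor (-1.4), and IFNGR1 (-0.26). In healthy steers 1 fell, IFNGR2, the second chain of the interferon-gamma receptor (-1.81, FDR 0.04291), which changed by 0.45 in BRD (FDR 0.5297). The IFNGR2 difference was 2.27 (95% interval 0.94 to 3.59, unadjusted p = 0.00164, FDR 0.9999, edgeR). Its change in healthy steers did not pass the test in 6 of 15 other settings. Members of the list called in healthy steers were 0 in pens that held both groups. They were also 0 without the 3 animals high in connective tissue markers, and 2 with all libraries of all days. IFNGR2 ranged from 5.16 to 126.3 CPM on day 0 and 2.82 to 101.4 CPM on day 13 in BRD, and from 6.02 to 102.47 and 3.46 to 61.6 CPM in healthy steers. Its change in healthy steers ran from -4.87 (ID50) to 0.54, and in BRD 3 steers (ID21, ID18 and ID23) had changes of 3.28, 3.27 and 2.17.

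TNF and NF-kB feedback genes had 8 members that rose and 3 that fell in BRD and 4 that rose in healthy steers, of 27 tested. Among all genes 6.39% rose and 6.86% fell in BRD, and 2.58% rose in healthy steers. The list medians were 0.103 in BRD and 0.117 in healthy steers. TNF itself rose in both (0.24 and 0.22), as did PTGS2, the inducible cyclooxygenase (0.57 and 0.95), BIRC3 (0.38 and 0.50) and CD40 (0.31 and 0.43). CCL3, a chemokine of activated leukocytes, was higher on day 13 in all 14 BRD steers, at 0.526, 1.55 and 3.40 CPM on day 0 and 1.41, 2.78 and 4.30 CPM on day 13 (lowest, median and highest). In healthy steers it stood at 0.938, 2.41 and 4.43 CPM and then at 1.54, 2.83 and 4.87 CPM, and was higher in 4 of 11. The change was 0.77 ± 0.161 in BRD (FDR 0.003484) and 0.12 ± 0.177 in healthy steers (FDR 0.7509), and the difference of 0.65 had an unadjusted p of 0.01138 (FDR 0.9999, edgeR). On day 0 CCL3 was -0.65 in BRD relative to healthy steers (unadjusted p = 0.008062), and on day 13 the difference was -0.01.

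Of 30 erythroid and heme synthesis genes, 17 rose in BRD and 9 in healthy steers, all 9 shared, and none fell. The shares of all genes that rose were 6.39% in BRD and 2.58% in healthy steers. Averaged over the list, all 14 BRD and 10 of 11 healthy steers had higher levels on day 13, with changes of 0.194, 1.38 and 2.63 in BRD and -0.0966, 0.81 and 1.87 in healthy steers (lowest, median and highest). HBB, beta-globin, stood at 35.7, 104.1 and 1898 CPM on day 0 and 169.8, 1915 and 24270 CPM on day 13 in BRD. In healthy steers it stood at 18.2, 94.38 and 617.6 CPM and then at 89.4, 943.3 and 5991 CPM. HBB rose in all 25 animals, by 3.87 and 2.92 on the log2 scale, and its difference of 0.95 had a 95% interval from -0.76 to 2.66.

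GYPB, a surface protein of red cells, had the smallest p of the erythroid list for the difference. It rose from a median of 0.257 CPM (0.0494 to 2.94) to 1.78 CPM (0.742 to 16.6) in BRD and from 0.294 CPM (0 to 1.92) to 1.14 CPM (0.0973 to 4.76) in healthy steers. The groups overlapped on both days, and the levels were low, with medians below 2 CPM on both days. The log2 change was 3.10 in BRD and 1.48 in healthy steers (FDR 1.377e-05 and 0.05234), with a difference of 1.62 ± 0.575 (unadjusted p = 0.009218, FDR 0.9999, edgeR). ALAS2, which starts heme synthesis in red cells, rose by 4.02 and 2.76 (interval of the difference -0.41 to 2.91). The erythroid list's median difference was 0.217 over all animals, 0.165 without the 3 animals high in connective tissue markers, and 0.0988 among pens that held both groups.

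**Figure D4:**
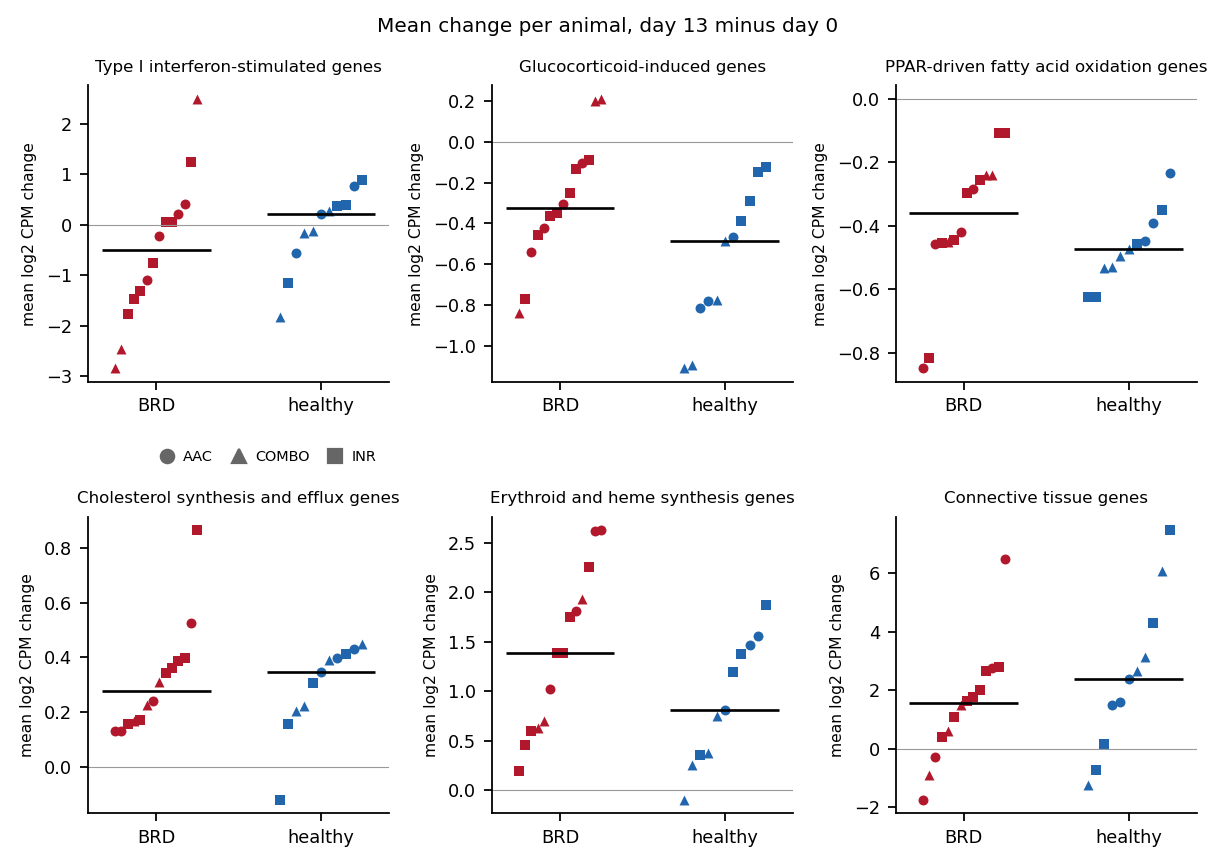
Mean log2 CPM change from day 0 to day 13 of 6 gene lists in each steer, BRD and healthy side by side, with bars at the medians and marker shapes for the supplement (AAC, COMBO or INR). The groups overlap in all 6 lists, and the interferon-stimulated genes spread from -2.84 to 2.49 in BRD and from -1.82 to 0.889 in healthy steers.

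Some platelet and basophil genes passed the test. Their counts stand beside shares over all genes of 6.39% higher and 6.86% lower in BRD, and 2.58% and 3.26% in healthy steers. Of 23 platelet and megakaryocyte genes, 8 rose and 1 fell in BRD and 3 rose and 1 fell in healthy steers. PPBP, a platelet chemokine, was higher on day 13 in 13 of 14 BRD steers (median 20.5 to 24.4 CPM) and in 7 of 11 healthy steers (15.31 to 18.8 CPM), with changes of 0.54 (FDR 0.01116) and 0.07 (FDR 0.8393) and a difference of 0.47 (unadjusted p = 0.02437, FDR 0.9999, edgeR). THBS1, thrombospondin, fell in both groups (-1.33 and -1.32). Of 12 eosinophil and basophil markers, 7 rose in BRD and 2 rose and 1 fell in healthy steers. FCER1A, the IgE receptor of basophils and mast cells (1.07 and 0.88), and GATA2, their transcription factor (1.04 and 0.89), rose in both, and IL5RA, the eosinophil growth factor receptor, fell in healthy steers (-1.08, against -0.40 in BRD). CCR3, the eotaxin receptor of eosinophils, had the smallest p for the difference (0.53, 95% interval 0.03 to 1.03, unadjusted p = 0.04038, FDR 0.9999, edgeR) and passed in neither group.

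Of 34 proliferation genes tested, 17 rose in BRD, where 6.39% of all genes rose, and 3 in healthy steers (CENPE, CENPF and TOP2A), where 2.58% of all genes rose. None fell in either group, and the medians were 0.345 and 0.216. The difference was positive for 31 of 34 (median 0.143), and 0 had an unadjusted p below 0.05, so no difference between the groups was shown. MKI67, the proliferation marker Ki-67, stood at 142.7, 266.9 and 519.8 CPM and then at 224.5, 373.8 and 547.5 CPM in BRD, and at 188.5, 290.2 and 418.7 CPM and then 253.5, 330.9 and 602.5 CPM in healthy steers. The groups overlapped on both days, with MKI67 higher on day 13 in 11 of 14 and in 7 of 11 animals. The changes were 0.46 (FDR 0.01419) and 0.28 (FDR 0.2322), and the difference was 0.18 with a 95% interval from -0.18 to 0.54. Without the 3 animals high in connective tissue markers the members called were 17 in BRD and 0 in healthy steers. Calls over all genes were then 1583 in BRD and 332 in healthy steers. The list's median change stayed close to that of all animals, at 0.359 in BRD and 0.207 in healthy steers.

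Counts for the lymphocyte lists, here and in the next paragraph, are to be set against the shares over all genes. Those were 6.39% higher and 6.86% lower in BRD, and 2.58% higher and 3.26% lower in healthy steers. Of 22 NK and cytotoxic genes, 4 rose and 5 fell in BRD and 2 rose and 7 fell in healthy steers, with 7 shared. CCL5, a chemokine stored by cytotoxic lymphocytes, fell in both groups, from a median of 75.8 to 53.2 CPM in BRD (lower in 12 of 14) and 79.5 to 55.8 CPM in healthy steers (lower in 11 of 11), by -0.46 and -0.86, with a difference of 0.40 ± 0.166 (unadjusted p = 0.02301, FDR 0.9999, edgeR). GZMK rose in both (0.75 and 0.86), and GZMB (1.06 and 0.40) and GZMA (0.67 and 0.38), granzymes of cytotoxic granules, passed in BRD. Of 24 alpha-beta T cell genes, 2 rose in BRD, ICOS and LEF1 (0.25 each), and 1 fell in healthy steers, IL7R, the interleukin-7 receptor of naive and memory T cells (-0.66, against -0.25 in BRD; difference 0.41, unadjusted p = 0.0414, FDR 0.9999, edgeR). The difference was positive for 23 of the 24 (median 0.126).

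FOXP3, the transcription factor of regulatory T cells, was the 1 member called of 14 regulatory and checkpoint genes. It stood at 4.44, 6.85 and 9.99 CPM on day 0 and 6.54, 9.67 and 12.8 CPM on day 13 in BRD (lowest, median and highest), and at 3.87, 6.88 and 9.98 CPM and then 4.13, 7.804 and 10.6 CPM in healthy steers. It was higher on day 13 in 13 of 14 BRD and 6 of 11 healthy steers, and the groups overlapped on both days. FOXP3 rose by 0.42 on the log2 scale in BRD (SE 0.0789, FDR 0.00144), its change in healthy steers was 0.08 (SE 0.0891, FDR 0.6294), and the difference was 0.33 (95% interval 0.09 to 0.58, unadjusted p = 0.009487, FDR 0.9999, edgeR). Of 19 B cell markers 1 rose in each group, CD72 (0.34 and 0.34), of 16 plasma cell genes none was called, and of 9 gamma-delta T cell genes CCR9 (-0.37 and -0.41) and CCR6 (-0.28 and -0.36), both homing receptors, fell in both.

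**Figure D5:**
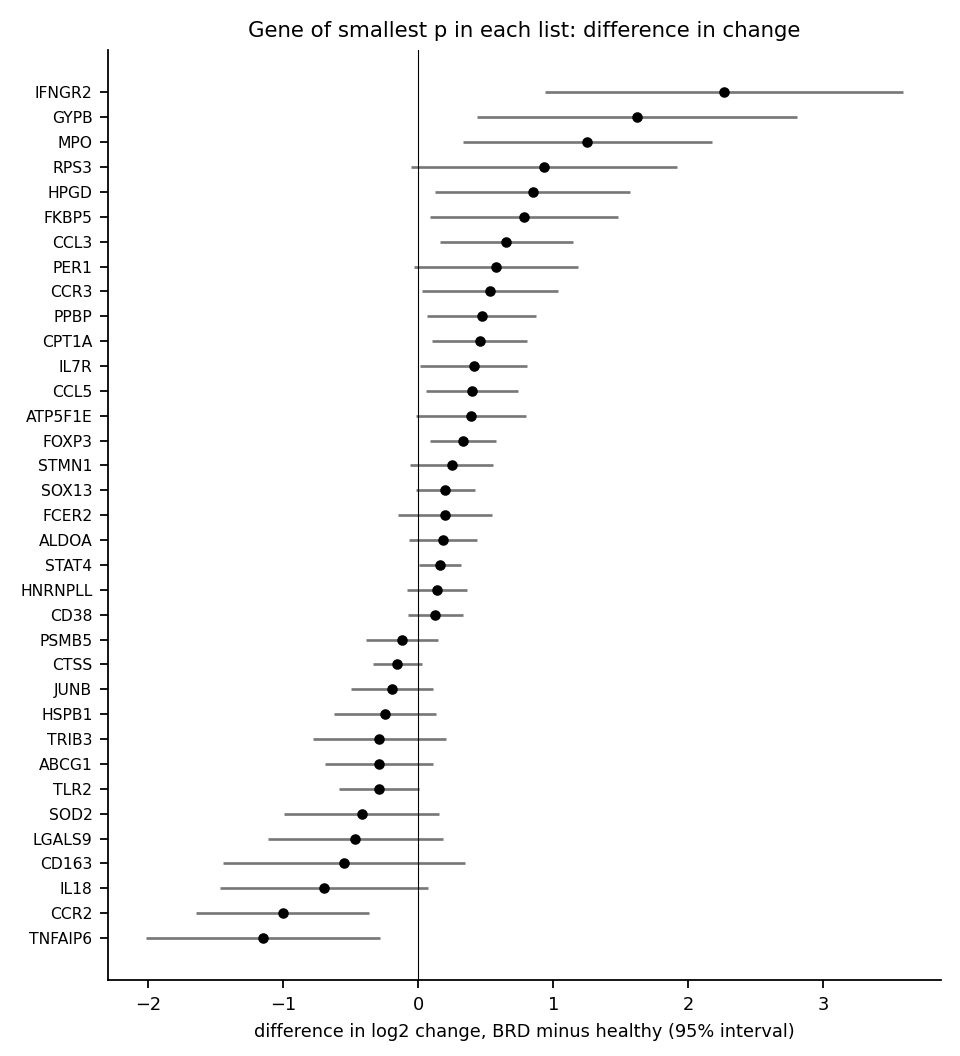
Difference in log2 change from day 0 to day 13, BRD minus healthy, with its 95% interval, for the gene of smallest p in each list, leaving out POSTN, whose interval is far wider. IFNGR2, GYPB, MPO, TNFAIP6 and CCR2 lie furthest from 0, and none of the genes passed FDR 0.10.

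Of 39 genes for metallothioneins and for handling of zinc, manganese, copper and cobalamin, 1 rose and 3 fell in BRD and 1 rose and 1 fell in healthy steers. TCN2, the cobalamin carrier, was called in both (-0.59 and -0.38), and 0 had an unadjusted p below 0.05 for the difference. Among all genes 6.39% rose and 6.86% fell in BRD, and 2.58% rose and 3.26% fell in healthy steers. Nothing about mineral handling is read from these counts. Of 23 glycolysis genes, 1 rose and 7 fell in BRD and 2 fell in healthy steers, among them PFKFB3, a regulator of glycolytic flux (-0.66 and -0.86). For these 23 the 95% interval of the difference lay within ±1 in all 23. The same held for all 20 endoplasmic reticulum chaperones and all 33 proteasome subunits, in which none was called in either group. Of 81 cytosolic ribosomal protein genes, 1 fell in BRD and 5 in healthy steers, and the difference was positive for 79 (median 0.139). Of these genes, 0 had an unadjusted p below 0.05 for the difference. Without the 3 animals high in connective tissue markers the median difference was 0.0606, with 1 member called in BRD and 0 in healthy steers. It was 0.227 in pens that held both groups. Of 7 cathelicidin genes in the table none had enough counts to be tested.

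For the lists whose gene of smallest p has not been given, that gene's difference is set out here. HPGD, which breaks down prostaglandins, had a difference of 0.85 (95% interval 0.13 to 1.57, unadjusted p = 0.02284, FDR 0.9999, edgeR), and STAT4, a signal transducer of interleukin-12, one of 0.16 (unadjusted p = 0.03782, FDR 0.9999, edgeR). The others had an unadjusted p above 0.05. Among immune lists the differences were -0.70 for IL18, -0.29 for TLR2, -0.15 for CTSS, 0.20 for FCER2, 0.13 for CD38, 0.20 for SOX13 and -0.19 for JUNB. Among metabolic and housekeeping lists they were -0.29 for ABCG1, 0.18 for ALDOA, -0.42 for SOD2, 0.39 for ATP5F1E, -0.24 for HSPB1, -0.29 for TRIB3, -0.12 for PSMB5, 0.14 for HNRNPLL and 0.25 for STMN1.

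Connective tissue genes had the widest spread of all lists. Of 11 tested, 2 rose in BRD and 6 in healthy steers, and the difference was negative for all 11 (median -0.728). POSTN, a matrix protein, had the smallest p for the difference (95% interval -9.76 to -0.77, unadjusted p = 0.02461, FDR 0.9999, edgeR). Averaged over the list, the change ran from -1.74 to 6.49 in BRD and from -1.24 to 7.47 in healthy steers. The highest values belonged to ID50 (7.47) and ID6 (6.08) among healthy steers and ID21 (6.49) among BRD steers. Without these 3 animals 1 member was called in each group, the median difference was -0.297, and over all genes the DEGs numbered 1583 in BRD and 332 in healthy steers, with 266 shared and again all of the same sign. The difference in change had 0 DEGs and 356 genes at an unadjusted p below 0.05 without them. What brought these RNAs into the samples was not tested.

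Some further genes with a small p for the difference, a selection picked after their values were seen, are given here. The smallest p of all genes tested, 0.0002285 (edgeR), belonged to LOC112443766. It changed by -1.15 in BRD and 1.32 in healthy steers (difference -2.47, 95% interval -3.65 to -1.28) at levels of 3.01 CPM or less. IFNGR2 and KLF11, described above, had a smaller p than the genes that follow. IFT74, part of the ciliary transport complex, had a difference of -0.87 (unadjusted p = 0.00248) with changes of -0.42 and 0.45. EPN2, an endocytic adaptor, was lower on day 13 in 13 of 14 BRD steers and in 5 of 11 healthy steers (difference -0.25, 95% interval -0.41 to -0.09, unadjusted p = 0.002929, edgeR). PDE2A, which breaks down cyclic nucleotides, was higher in 10 of 14 and 2 of 11 (difference 1.07, 95% interval 0.37 to 1.77, unadjusted p = 0.004133, edgeR). MAPK11, the p38 beta kinase, rose in all 25 animals (2.54 and 1.52, difference 1.03, unadjusted p = 0.005999). All had an FDR of 0.9999.

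The size of the change was measured in each animal as the mean absolute log2 CPM change over all tested genes. It was 0.335, 0.514 and 0.606 in BRD (lowest, median and highest) and 0.36, 0.43 and 0.544 in healthy steers, with means of 0.473 ± 0.0895 (SD, n = 14) and 0.433 ± 0.059 (SD, n = 11). The groups overlapped, and the difference in means of 0.0395 had a two-sided permutation p of 0.216. The spread between animals was wider in BRD: the median SD of a gene's change was 0.406 in BRD and 0.348 in healthy steers, and 11334 genes (67%) had the larger SD in BRD. This is a description, since genes are not independent.

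A principal component analysis of the animals' changes, which did not use disease, put 12.7% of the variance on the first component and 9.83% on the second. BRD and healthy steers differed on the first by 0.229 SD (two-sided permutation p = 0.576, adjusted 0.576) and on the second by -0.329 SD (permutation p = 0.436, adjusted 0.576). Genes at the low end of the first component included the matrix genes DCN and MMP2, and its lowest animals were ID50 (-59.3) and ID21 (-48.3). Genes at the high end of the second included ISG15, RSAD2, OAS1Y and CXCL10, interferon-induced genes, and also COL1A1, a connective tissue marker. IFITM2 lay at its high end, but IFITM1, another interferon-induced gene, lay at its low end. Scores on the second spread from -83.6 to 58.5 in BRD and from -33.5 to 16.7 in healthy steers. The 3 extreme BRD animals were again ID18, ID54 and ID16.

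The levels on the 2 days were also set side by side. On day 0, edgeR called 1 gene (0.00591%), with 841 at an unadjusted p below 0.05. That gene was ATP6, a mitochondrial ATP synthase subunit, higher in BRD by 6.45 on the log2 scale (FDR 0.02259), and the value rested on steer ID21 alone, at 396.5 CPM against at most 0.68 CPM in the other 24. On day 13, 0 genes were called by edgeR (0%), with 593 at an unadjusted p below 0.05, and 9 by DESeq2. CCR2 (-0.56, unadjusted p = 0.01141), FOXP3 (0.34, unadjusted p = 0.01698) and PPBP (1.07, unadjusted p = 0.003713) were among the 593 genes of edgeR on day 13 (3.5% of those tested). None of them passed the FDR.

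In a fit of all libraries of all days with the animal as a block, the difference in change was also computed to each later day, over 17853 genes. It called 0 genes (0%) on each of days 13, 28, 45 and 60, with 573, 843, 728 and 547 genes at an unadjusted p below 0.05. These comparisons share the day 0 libraries, so the values are given side by side only. The CCR2 difference was -0.84 to day 13, -0.20 to day 28, -0.15 to day 45 and -0.36 to day 60. For FKBP5 it was 0.77, 0.75, 0.68 and 0.72 to the same days. All were measured from the same day 0 libraries, in which FKBP5 was -0.88 in BRD relative to healthy steers without passing the FDR. For FOXP3 the difference in change was 0.29, 0.23, 0.13 and 0.03. GYPB stood at 1.67, 0.62, 0.75 and 0.48 and ISG15 at -0.61, -0.40, -1.32 and -1.44. None of these passed the FDR on any day.

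Splitting by supplement or by pen added no DEG to the difference. Within AAC, COMBO and INR steers alone the difference had 0 DEGs each, with 398, 1164 and 1407 genes at an unadjusted p below 0.05, in groups of 3 to 7 steers. With supplement by day in the model it had 0 DEGs and 430 such genes, and among the 7 BRD and 7 healthy steers of the 4 pens that held both groups it had 0 DEGs and 670 such genes. In those 14 animals the DEGs between days numbered 983 in BRD and 197 in healthy steers, 132 of them shared and all of the same sign.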

How the data were processed

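Whole blood of steers was collected into RNA stabilising tubes, and polyadenylated RNA was sequenced as stranded paired-end libraries. The deposited table holds gene-level raw counts made by the authors. Per the labels and the study's methods, reads were trimmed with Trimmomatic 0.39, aligned with HISAT2 to the bovine assembly ARS-UCD1.3 and assembled with StringTie 2.2.0, and counts were derived by prepDE from transcript coverage and length, so they are estimates written as whole numbers and genes sharing sequence can trade counts.

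Samples were grouped by the labels for disease, day and individual. Low genes were removed with edgeR's filterByExpr, grouped by disease and day (4 sets), and libraries were scaled by TMM and tested in edgeR 4.0.16 (R 4.3.3) by quasi-likelihood F-tests at 1 common dispersion, with the animal as a block and an FDR threshold of 0.10 (Benjamini-Hochberg over all genes). Levels at a given day were fitted to group means without the block. Same-numbered libraries come from the same animal per the labels, and their deviations from group means correlated with a median of 0.353 (0.197 to 0.527, 25 of 25 above 0.1) against -0.0156 between different animals. No library repeated another. The common dispersion of 0.0793 is a coefficient of variation of 28.2%, with 23 residual degrees of freedom. Values per animal are log2 CPM with a prior count of 2. Single values were compared by two-sided permutation tests with 1e+05 resamples. Other settings tried were RLE size factors, other filters, DESeq2 1.42.0, limma 3.58.1, a trended dispersion, no block, supplement by day, shared pens, each supplement alone, all libraries, a stricter FDR and leaving out each animal. Scripts were tested on simulated data.

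The comparison, its members and the gene lists were chosen with earlier results of these data known, so no list or gene was selected independently of the data. Named genes were those passing FDR 0.10 for the difference (none did) and, from each list, the tested member of smallest p for the difference. List members named for a change within a group, and other genes named, were chosen after their values were seen. Gene names are as in the table, and the order of neighbouring genes was read from RefSeq's ARS-UCD2.0 annotation, another build, so no coordinates or sequences are given. Whether replicate libraries differ in extraction date or RNA quality was not tested.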

Additional observations from a re-analysis of the deposited data

How the results depend on the processing

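The difference in change had 0 DEGs under every setting run except DESeq2, which called 3. The number of genes at an unadjusted p below 0.05 for it ran from 312 to 530 over the fits that left out 1 animal (lowest without ID50, highest without ID16). The animal block, which pairs the 2 libraries of a steer, mattered most for the changes within groups: with no replicate block the difference had 0 DEGs and 212 genes at an unadjusted p below 0.05, the change in BRD 1005 DEGs and the change in healthy steers 321.

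The change in BRD (2243 DEGs) gave 983 in shared pens, 63 in AAC, 1 in COMBO and 255 in INR steers alone, and 1384 at FDR 0.05, and leaving out 1 animal gave 1567 to 2829. The change in healthy steers (988 DEGs) gave 1621 by DESeq2, 197 in shared pens, 2009 with all libraries of all days, 46 in AAC, 8 in COMBO and 11 in INR steers, 535 at FDR 0.05 and 332 without the 3 animals with over 100 CPM of summed connective tissue markers, a setting added after seeing the data. Leaving out 1 animal gave 517 to 1689, with 1689 without ID3, 517 without ID6, 640 without ID7, 628 without ID42 and 631 without ID50. Fewer animals enter the split settings. The cause of the others was not tested. Genes called in both groups without the block numbered 203, all of the same sign. Levels on day 0 gave 0 DEGs in shared pens, and on day 13 they gave 1 in shared pens and 9 by DESeq2.

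The difference in change of named genes turned its sign in 33 of 2396 refits, none from leaving out 1 animal and none of them called. In AAC steers alone it was -0.0426 for CCL3, -0.0841 for ALDOA, -0.0727 for PDK4, -0.065 for SLC25A20, -0.53 for CD36 and -0.0204 for FCGRT. In COMBO steers alone it was 1.13 for CD163, -0.0848 for FCER2, -0.0097 for CD38, 0.26 for SOD2, -0.11 for ATP5F1E, 0.78 for HP and 0.0633 for S100A8, and the change of POSTN in BRD was -4.43. In INR steers alone it was -0.0233 for PER1, 0.14 for ABCG1, 0.0807 for HSPB1, 0.23 for PSMB5, -0.16 for HNRNPLL, -0.30 for PDK4, -0.45 for CD36, 0.24 for SCD, -0.56 for ARG1, -0.0449 for ALAS2, -0.57 for HBB and 0.17 for ATP6. In shared pens it was -0.19 for PDK4, -0.00606 for SLC25A20, -0.81 for CD36, 0.10 for SCD, -0.0268 for FCGRT and -0.33 for ARG1. For CD36 it was also -0.31 with no replicate block and -0.00068 with all libraries.

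The other alternatives left the size of the change per animal, both principal components and the 1440 counts of list members called for the difference (0 each) on the same side. With 25 animals and a median SE of 0.159, small differences were not detectable.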

Other observations

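On day 13, DESeq2 called 9 genes between BRD and healthy steers where edgeR called 0, and 7 of the 9 (DECR2, FAM234A, LOC112444351, NME4, RAB11FIP3, RGS11 and TMEM8A) lie in 1 run of 24 neighbouring genes, from POLR3K to RAB11FIP3, that also holds the alpha-globin genes HBM, HBA, HBA1 and HBQ1 in the gene order of RefSeq's ARS-UCD2.0 annotation. The other 2 were DUSP26 and FNDC1. RGS11, a regulator of G protein signaling, stood at 340.5 CPM in ID21, 207.2 CPM in ID41, 185.1 CPM in ID39 and 13.7 CPM in ID31, all BRD, and at 51.03 CPM in healthy steer ID7, against at most 0.612 CPM in the other animals and at most 0.634 CPM in any animal on day 0. DECR2, an enzyme of peroxisomal fatty acid oxidation, stood at 924.8, 565.2, 506.4, 43.5 and 147.9 CPM in the same 5 steers, and NME4, a mitochondrial nucleotide kinase, at 170.1, 104.7, 92.9, 8.15 and 27.6 CPM. The genes at the other end of the run, POLR3K, SNRNP25, MPG and NPRL3, showed no such animals, with NPRL3 from 17.3 CPM up to 26.3 CPM over all 25 steers and both days. HBA1, whose counts can be shared with the near-identical HBA, was highest on day 13 in ID41 (57040 CPM), ID21 (55090 CPM) and ID39 (27760 CPM). ID7 and ID31, also high for RGS11, stood at 16440 and 7449 CPM of HBA1. ID9, ID50 and ID29, not high for RGS11, stood at 19330, 8198 and 7543 CPM. The difference in change of these 7 genes was 0.52 to 2.31 on the log2 scale and none passed the FDR in edgeR.

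The 4 BRD steers of that pattern, ID21, ID31, ID39 and ID41, also had the 4 lowest day 13 levels of CCR2 in the data set, at 29.8, 21.3, 44.5 and 19.7 CPM, against 52.4 CPM or more in the other 21 animals. Healthy steer ID7 had 93.8 CPM. This was noticed after the values were seen and was not tested.

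The 3 genes that DESeq2 called for the difference in change were LOC107132911 (log2 difference -16.1, FDR 0.00932), LOC112449266 (9.5, FDR 0.0498) and LOC786039 (25.3, FDR 0.0989). In edgeR their differences were -5.33, 3.75 and 6.70, with unadjusted p of 0.0296, 0.0634 and 0.0596.

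RPS3, the ribosomal protein gene of smallest p, ranged from 93.27 to 1328 CPM on day 0 and 56.7 to 1283 CPM on day 13 over the 25 steers, with changes from -2.62 to 2.92 and a difference of 0.93 (95% interval -0.05 to 1.91). Counts of ribosomal protein genes can be split with their processed copies, so these values are uncertain.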
